A study of Mus musculus with 8 samples.

Results

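The proteasome is the protease complex that degrades proteins tagged with ubiquitin, and the genes of its subunits, activators and assembly chaperones were examined in livers of ICR mice, an outbred strain. The members were every gene whose symbol begins with Psma to Psmg followed by a digit, symbols with "-ps" left out. They came to 49 of the 24547 genes listed, and 47 of them were among the 12861 genes with enough counts to test. One member by name, Psmc3ip, encodes a cofactor of meiotic recombination and is no proteasome subunit. The treated group had 4 libraries, from mice given a high-dose decoction of Psoraleae Fructus into the stomach over 30 days. That drug is the fruit of the legume Psoralea corylifolia. The control group had 4 libraries from mice given saline. All 8 were poly-A RNA libraries from liver taken after death, and no genetic change or second agent is named for either group. The labels state no sex, age, dose by mass or batch. Nor do they say whether each library came from its own animal, so the p-values rest on the spread among these libraries, which may be technical. Control libraries held 15864399 to 19153845 counts and treated ones 16398729 to 20159132. The hepatocyte product Alb, serum albumin, stood at 116450 ± 21782 CPM in the controls and 117620 ± 8534 CPM in the treated libraries (SD, n = 4 each), and all 6 hepatocyte markers listed were detected. CPM here means counts scaled to a common library depth, with TMM factors applied.

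The proteasome consists of a barrel-shaped core particle and a regulatory particle that caps it. The core is built of outer rings of alpha subunits and inner rings of beta subunits, and of the constitutive beta subunits only Psmb5, Psmb6 and Psmb7 carry active sites. Under interferon gamma, cells make Psmb8, Psmb9 and Psmb10, which take the places of Psmb5, Psmb6 and Psmb7 in newly built cores. The resulting immunoproteasome is best known for supplying peptides to MHC class I molecules. The regulatory particle binds, unfolds and feeds in ubiquitin-tagged substrates through a base with an ATPase ring and a lid that removes the ubiquitin. In mammals the transcription factor Nfe2l1 drives the constitutive subunit genes together when proteasome activity falls short.

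Promoter sequences are shown for some of the genes on which the comparison of inducible and constitutive sites turns. All but that of Psmb9 hold a motif match. The sequences are from RefSeq on GRCm38.p6, and 41 of the 49 members had a window of 250 bases before to 50 bases after the start site. Each line gives the 250 bases before the RefSeq start site, 5′ to 3′ on the gene's strand, except that of Psme1, which gives 30 bases around a match. For Psmb9 the capitals mark the 225 bases between its start site and that of Tap1, the peptide transporter gene on the opposite strand. For the others the capitals mark a match to a short motif.
Psmb9, chr17:34187331-34187580, minus strand: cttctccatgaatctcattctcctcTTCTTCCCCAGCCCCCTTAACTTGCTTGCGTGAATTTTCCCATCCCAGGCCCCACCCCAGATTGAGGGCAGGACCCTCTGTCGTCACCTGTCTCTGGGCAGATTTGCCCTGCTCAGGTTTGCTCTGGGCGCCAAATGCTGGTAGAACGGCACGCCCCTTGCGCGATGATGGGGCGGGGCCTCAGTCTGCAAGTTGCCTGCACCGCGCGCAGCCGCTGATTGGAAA
Psmb8, chr17:34197945-34198194, plus strand: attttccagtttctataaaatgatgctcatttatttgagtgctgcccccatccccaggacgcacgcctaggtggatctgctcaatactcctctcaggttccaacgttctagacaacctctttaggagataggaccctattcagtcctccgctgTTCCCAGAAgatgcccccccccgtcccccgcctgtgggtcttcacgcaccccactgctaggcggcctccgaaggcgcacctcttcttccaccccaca
Psmb5, chr14:54617996-54618245, minus strand: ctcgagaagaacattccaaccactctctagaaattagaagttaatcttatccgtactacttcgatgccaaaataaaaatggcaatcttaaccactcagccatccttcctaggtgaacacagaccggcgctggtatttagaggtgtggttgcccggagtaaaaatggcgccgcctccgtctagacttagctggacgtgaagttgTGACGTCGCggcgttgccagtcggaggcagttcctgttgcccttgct
Psmb6, chr11:70525107-70525356, plus strand: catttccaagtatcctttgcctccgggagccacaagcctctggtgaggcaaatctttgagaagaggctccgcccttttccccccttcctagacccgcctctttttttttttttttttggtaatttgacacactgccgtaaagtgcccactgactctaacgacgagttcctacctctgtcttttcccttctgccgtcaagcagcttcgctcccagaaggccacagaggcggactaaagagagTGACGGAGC
Psme1, chr14:55578493-55578522, plus strand: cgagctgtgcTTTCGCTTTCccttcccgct
By their RefSeq start sites, Psmb9 and Tap1 are divergent neighbours in this stretch. GENCODE M21, the source of the gene positions given below, places the starts of Psmb9 and Psmb8 further upstream. Their printed stretches lie within the genes as annotated there. The motif in Psmb8, TTCNNNGAA, is the gamma-activated site bound by STAT factors, and its first base lies 97 bases before the start site. It was found in 3 of the 41 member windows (7.32%), those of Psmb8, Psmd2 and Psmg1, and in 8.3% of all 32851 windows. The motif in Psmb5 and Psmb6, TGACNNNGC, is the antioxidant response element bound by Nfe2l1 and Nfe2l2, and its first base lies 47 bases before the start site of Psmb5 and 9 before that of Psmb6. It was found in 6 member windows (14.6%), against 12.4% of all windows. The others were those of Psmc6, Psmd9, Psmd12 and Psme4, and no match was listed for Psmb7. The motif in Psme1, which is GAAA, NN and GAAA in a row and was matched on the other strand, is the interferon-stimulated response element, and the match begins 9 bases after the start site. It was found in 5 member windows (12.2%), against 3.44% of all windows. The others were those of Psmb3, Psmd4, Psmd9 and Psmg4. Neither this motif nor the gamma-activated site was listed for Psmb9, Psmb10 or Psme2, though not every member had a window. Both strands were searched, and in member windows there were 0 cases of overlapping matches of different motifs. A match describes these letters and is not a measured binding site.

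Of the 47 members tested, Psmd1 and Psme4 fell and none rose, at an adjusted p under 0.05 in edgeR's quasi-likelihood test with Benjamini-Hochberg adjustment over all 12861 genes. The 2 calls are 4.26% of the members, against 9.21% of all genes tested, or 3.75% called lower and 5.46% called higher. At an unadjusted p under 0.05, 3 members were higher and 7 lower, 10 of 47 against 29.4% of all genes. DESeq2 called Psmb7 higher and Psmd1, Psmd11 and Psme4 lower. It called 9.39% of the 22927 genes with any count, a wider set than that of edgeR, so the 2 shares are not alike. Limma on log2(FPKM + 1) called Psmd1 and Psme4 lower, with 7.49% of its genes called. The log2 difference of treated minus control was below 0 in 32 members (68.1%), against 53.3% of all genes, and its median was -0.13, against -0.04 over all genes. In 6 members the treated and control CPM did not overlap, all with the treated values lower (12.8%), against 18.9% of all genes in either direction, 8.70% with the treated values lower and 10.2% with them higher. These 6 were Psma1, Psmc2, Psmd1, Psmd11, Psmd14 and Psme4, which include alpha ring, ATPase, base, lid and activator genes.

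**Figure D1:**
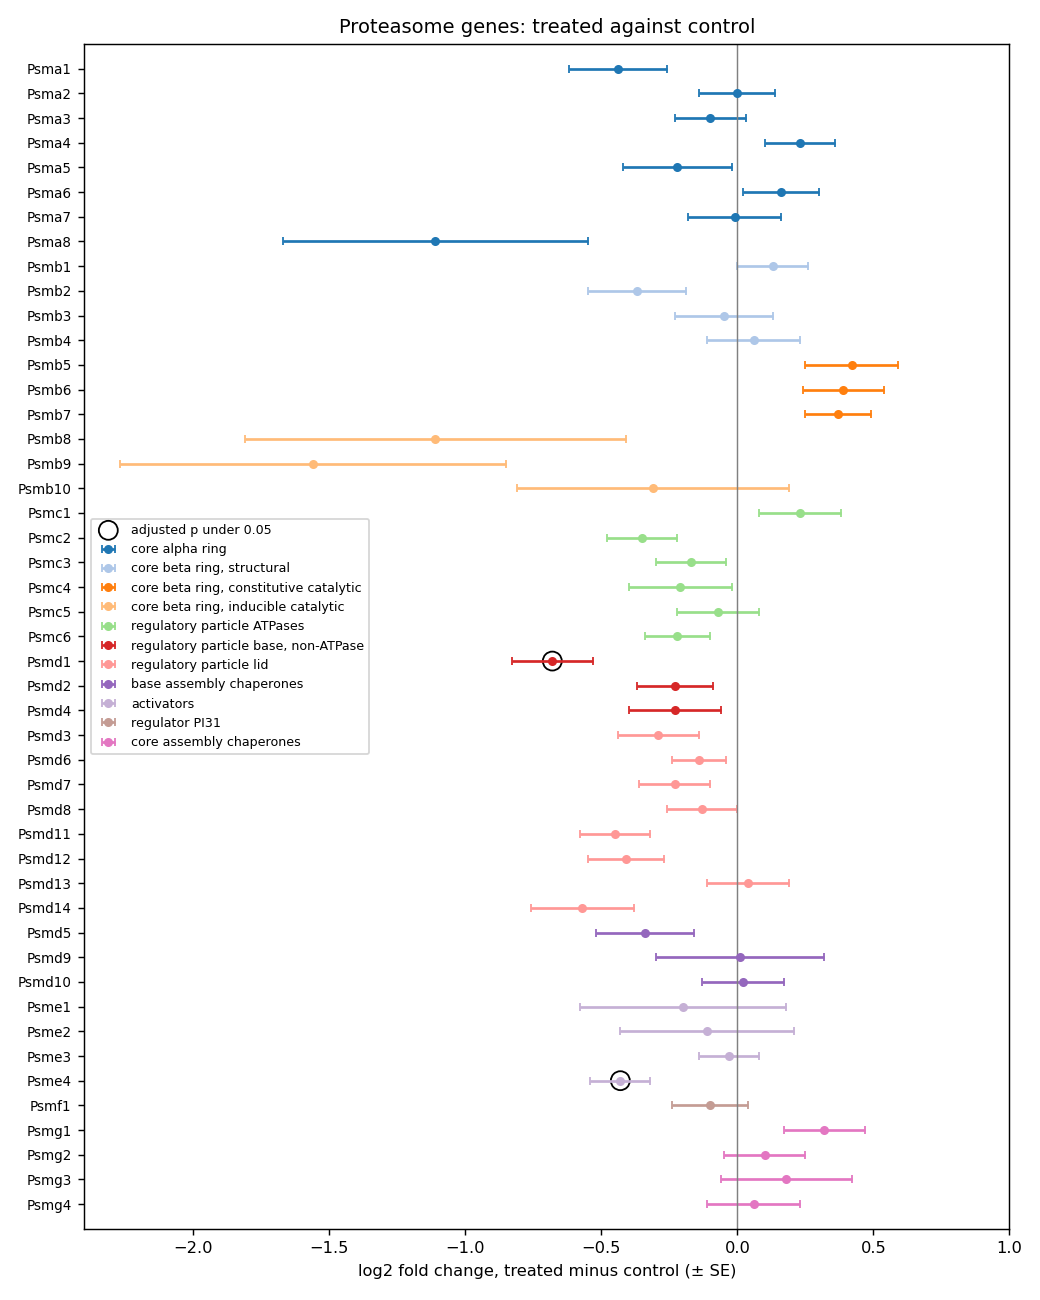
Log2 fold change of treated minus control for each of the 47 proteasome genes tested, coloured by class; points are edgeR estimates, bars are ± SE, and circles mark an adjusted p under 0.05. Only Psmd1 (-0.68) and Psme4 (-0.43) are circled, the inducible catalytic subunits have the widest bars together with Psma8, and 15 of 17 regulatory particle subunits lie below 0.

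Control 2 stood apart in these genes. It was the highest of the 8 libraries in 32 of the 47 members tested (68.1%), against 19.3% of all genes tested. Without it the median log2 difference of the members was 0.02, and no member was called by edgeR, where 1.34% of genes were called lower and 3.15% higher. Among the controls the median SD of log2 CPM over members was 0.22, and 0.13 without control 2, while over all genes tested it was 0.30 and 0.29. In the same library the summed CPM of the hepatocyte markers was 108116. It was 134318 to 162539 in the other controls and 135564 to 154390 in the treated libraries. Most of the sum was Alb, at 86669 CPM in control 2 and 113735 to 133438 CPM in the other controls. Among the controls, Alb, Cps1 and Cyp2e1 were lowest in control 2, Apoa1 was highest there (8308 CPM), and Ttr and Hnf4a lay between. The part of these values in the results was not tested.

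**Figure D2:**
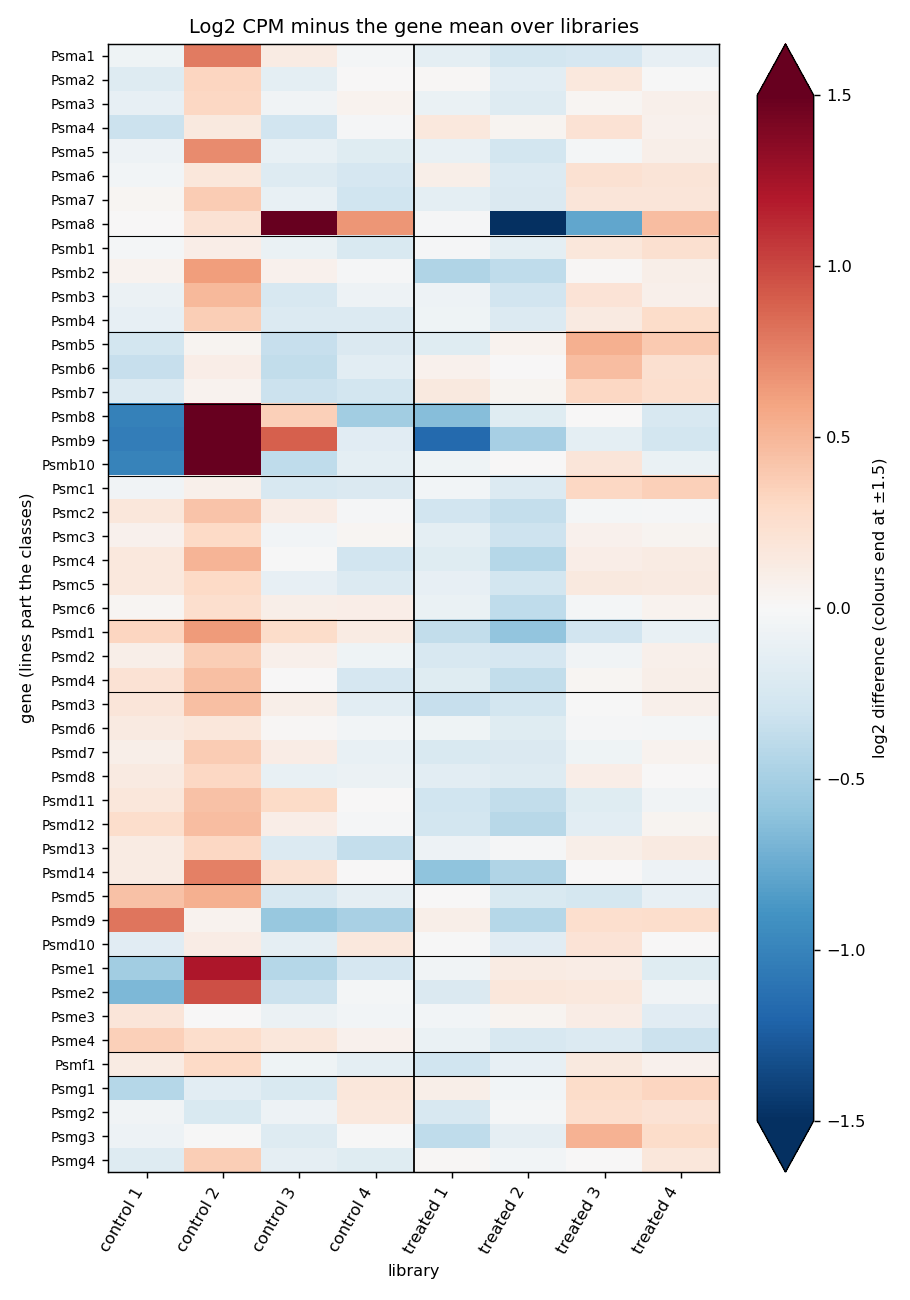
Heat map of the 47 proteasome genes tested (rows, parted by class) in each library (columns); colour is log2 CPM minus the mean of the gene over all 8 libraries, red above and blue below, with the scale ending at 1.5 either way. The column of control 2 is red in most rows and darkest in Psmb8, Psmb9, Psmb10 and Psme1, and its median deviation is 2.24 for the inducible catalytic subunits, 0.37 for the regulatory particle and 0.31 for the constitutive core, against 0.01 for all genes tested.

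The inducible catalytic subunits were high in control 2 and even across the treated libraries. Psmb8, the inducible subunit of the chymotrypsin-like site, stood at 8.11, 78.3, 21.2 and 11.4 CPM in controls 1 to 4 and at 10.5, 14.5, 16.5 and 13.9 CPM in treated libraries 1 to 4. Psmb9, that of the caspase-like site, stood at 9.13, 98.1, 35.1 and 16.7 CPM in the controls and at 8.35, 13.3, 17.0 and 15.5 CPM in the treated libraries. Psmb10, that of the trypsin-like site, stood at 15.6, 88.7, 24.0 and 28.3 CPM in the controls and at 30.0, 31.4, 35.4 and 29.3 CPM in the treated libraries. In each gene control 2 was the highest library and the groups overlapped. Controls 2 and 3 lay above all treated libraries in Psmb8 and Psmb9, while in Psmb10 controls 1, 3 and 4 lay below all of them. On GRCm38 these protein-coding genes lie at chr17:34197721-34201454, chr17:34181987-34187764 and chr8:105935735-105938444, so Psmb8 and Psmb9 are neighbours in the MHC region. An exon of Psmb9 overlaps one of Tap1 on the opposite strand, and one of Psmb8 overlaps the antisense gene Gm20496, and reads of overlapping genes cannot be told apart unless the counting used strand, which no label states.

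None of these genes passed the test. The log2 difference was -1.11 for Psmb8 (SE 0.70, edgeR adjusted p = 0.333), -1.56 for Psmb9 (SE 0.71, edgeR adjusted p = 0.196) and -0.31 for Psmb10 (SE 0.50, edgeR adjusted p = 0.716). Of the 3, 0 had an unadjusted p under 0.05, and neither DESeq2 nor limma on log2(FPKM + 1) called any. Without control 2 the log2 differences were 0.04 for Psmb8, -0.58 for Psmb9 and 0.48 for Psmb10, again with no call. The SD of the controls exceeded the difference between the group means, at 40.4 CPM around a mean of 39.8 for Psmb9 and 32.9 around 29.8 for Psmb8. In the treated libraries the SD was 3.77 around 13.5 CPM for Psmb9 and 2.48 around 13.9 CPM for Psmb8.

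The constitutive catalytic subunits had higher means in the treated libraries, without passing the test. Psmb5, the chymotrypsin-like subunit at chr14:54614119-54618022, stood at 25.8, 32.0, 24.4 and 26.7 CPM in the controls and at 27.5, 32.4, 45.0 and 41.0 CPM in the treated libraries. Psmb6, the caspase-like subunit at chr11:70525367-70527858, stood at 70.8, 96.3, 69.3 and 80.3 CPM in the controls and at 93.6, 90.2, 124 and 106 CPM in the treated libraries. Psmb7, the trypsin-like subunit at chr2:38588036-38644087, stood at 44.8, 53.6, 41.0 and 42.5 CPM in the controls and at 57.1, 53.0, 63.8 and 61.2 CPM in the treated libraries. In all 3 genes the groups overlapped because control 2 lay above treated 1, treated 2 or both, and treated 3 was the highest library. The log2 differences were 0.42 for Psmb5 (SE 0.17), 0.39 for Psmb6 (SE 0.15) and 0.37 for Psmb7 (SE 0.12), with edgeR adjusted p-values of 0.129, 0.121 and 0.0786. They were the only members higher at an unadjusted p under 0.05.

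These differences moved with an adjustment for how long and how GC-rich genes are. Over all genes tested, the log2 difference had a rank correlation of -0.241 with gene length and 0.309 with GC content, and a trend in both was removed from each library as an alternative. Psmb7 was then at 0.59 (edgeR adjusted p = 0.0351) and called higher, Psmb6 was at 0.30 (edgeR adjusted p = 0.202) and Psmb5 was at -0.00 (edgeR adjusted p = 0.986). With that correction 4.49% of all genes were called, and Psmb7 was the only member among them. DESeq2 placed Psmb7 at the threshold, with an adjusted p that rounds to 0.05. An exon of Psmb7 overlaps one of Nek6 on the opposite strand. Whether reads were split in the counting with any pseudogene copies of Psmb5, Psmb6 or Psmb7 was not examined.

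**Figure D3:**
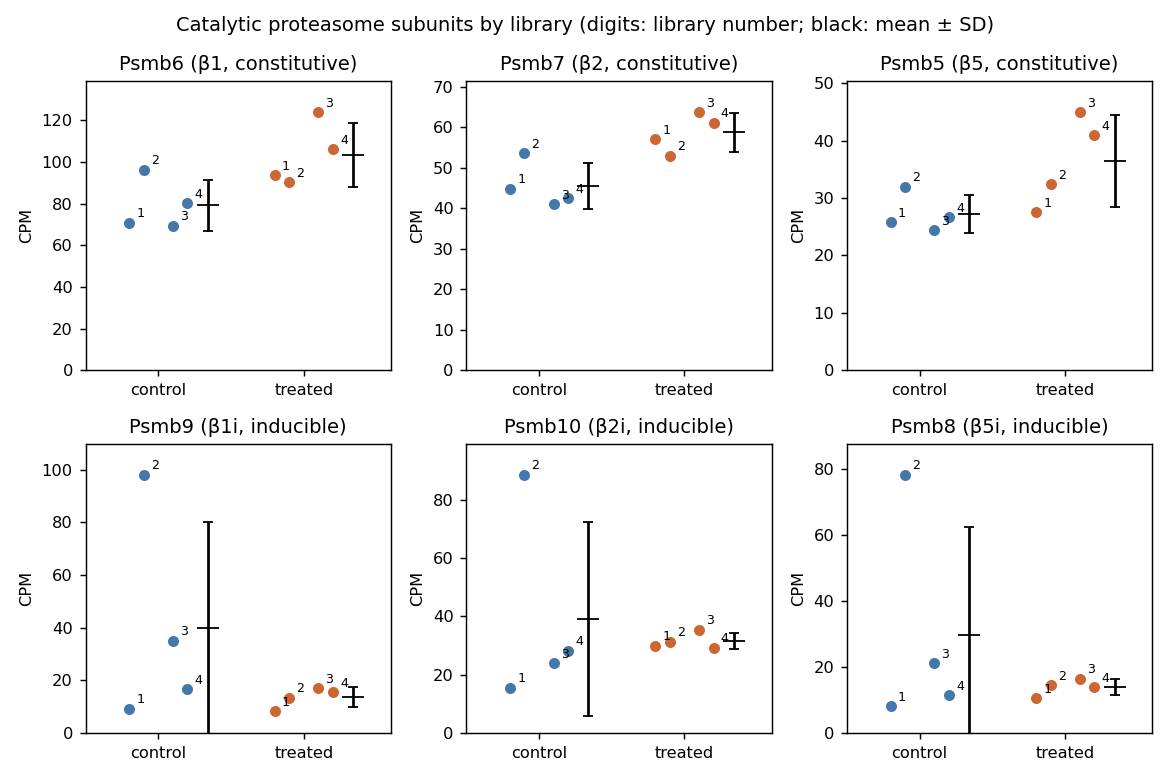
CPM of the constitutive (top) and inducible (bottom) catalytic subunits in each library, on linear axes from 0; points are libraries, and bars are the mean and SD of 4 libraries, cut at 0 where the mean minus SD is below it. Control 2 lies above every other library in Psmb8 (78.3), Psmb9 (98.1) and Psmb10 (88.7), while in Psmb5, Psmb6 and Psmb7 the highest library is treated 3.

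Set against its constitutive partner, each inducible subunit spanned a wide range in the controls and a narrow one in the treated libraries. FPKM, counts scaled by gene length and library depth without the TMM factors of CPM, let levels of different genes be set side by side. The FPKM ratio of Psmb9 to Psmb6 was 0.066, 0.521, 0.259 and 0.107 in the controls and 0.0456, 0.0756, 0.0701 and 0.0744 in the treated libraries. Controls 2, 3 and 4 lay above all treated libraries and control 1 among them. The ratio of Psmb8 to Psmb5 was 0.103, 0.804, 0.285 and 0.14 in the controls and 0.125, 0.147, 0.12 and 0.111 in the treated libraries. The ratio of Psmb10 to Psmb7 was 0.7, 3.32, 1.18 and 1.34 in the controls and 1.06, 1.19, 1.11 and 0.96 in the treated libraries. In both of these pairs control 1 was the lowest and control 2 the highest of all 8 libraries.

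In an exact two-sided permutation test over the 70 assignments of the libraries, whose smallest p is 0.0286, the difference between the groups passed in 0 of the 3 pairs. The log2 ratio of Psmb9 to Psmb6 was -2.51 ± 1.33 in the controls and -3.94 ± 0.35 in the treated libraries (SD, n = 4), a difference of -1.43 (SE 0.69, exact permutation p = 0.114, 0.343 after Benjamini-Hochberg adjustment over the 3 pairs). That of Psmb8 to Psmb5 differed by -0.94 (SE 0.66, exact permutation p = 0.286, adjusted 0.429). That of Psmb10 to Psmb7 differed by -0.36 (SE 0.47, exact permutation p = 0.629, adjusted 0.629). Without control 1 the difference of Psmb9 to Psmb6 was -1.90 with an exact permutation p of 0.0286, the smallest that 35 assignments allow, and without control 2 it was -0.91 (exact permutation p = 0.114). Without control 2 the difference of Psmb8 to Psmb5 was -0.36 and that of Psmb10 to Psmb7 turned to 0.06.

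Psmb10 was the most abundant inducible subunit per length, at 21.2 FPKM over all libraries, against 8.29 for Psmb8 and 7.59 for Psmb9. The constitutive partners stood at 15.2 FPKM for Psmb7, 35.4 for Psmb5 and 48.7 for Psmb6. Together the inducible subunits made up 15.5%, 51.1%, 29.2% and 23.0% of the summed FPKM of the 6 catalytic genes in the controls, and 19.6%, 21.5%, 18.9% and 18.0% in the treated libraries. Control 2 was again the highest and control 1 the lowest library, and the treated libraries lay between control 1 and control 4. In a bulk sample, fewer cells of a type and less RNA per cell cannot be told apart.

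**Figure D4:**
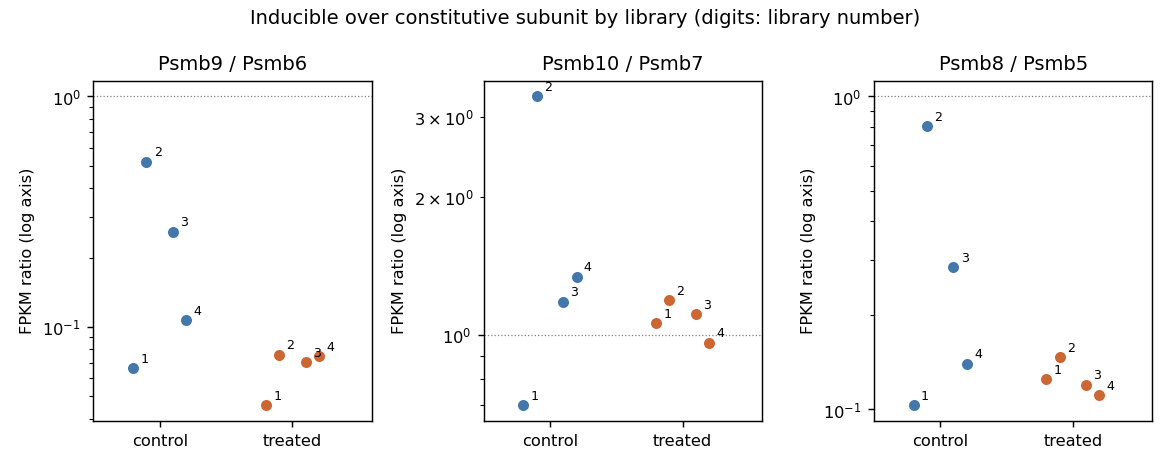
FPKM ratio of each inducible catalytic subunit to its constitutive partner by library, on a log axis; points are libraries. The control points run from 0.066 to 0.521 for Psmb9 to Psmb6, from 0.103 to 0.804 for Psmb8 to Psmb5 and from 0.7 to 3.32 for Psmb10 to Psmb7, and the treated points are closely grouped in each pair.

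Genes of the interferon gamma response and of MHC class I presentation were high in the same control library as the inducible subunits. Ifng itself had 2, 12, 1 and 0 counts in controls 1 to 4 and 0 counts in the treated libraries, where 3 counts, the limit that a count of 0 allows, would be 0.15 to 0.182 CPM. The summed CPM of the 16 listed response genes was 837, 7462, 1735 and 952 in the controls and 886, 1042, 784 and 823 in the treated libraries, and 14 of the 15 tested were highest in control 2. Of the 15, edgeR called 0, against 9.21% of all genes, and DESeq2 called 5 lower and limma 0. At an unadjusted p under 0.05, 8 were lower, against 29.4% of all genes in either direction. The most abundant, the immunity-related GTPase Iigp1, stood at 350, 3787, 855 and 469 CPM in the controls and at 461, 583, 412 and 449 CPM in the treated libraries. Of the 12 presentation genes edgeR called 0, 4 were lower at an unadjusted p under 0.05, DESeq2 called 3 lower and limma 0, and 10 were highest in control 2. Their most abundant gene, B2m, the light chain of MHC class I, stood at 2290 ± 732 CPM in the controls and 1527 ± 218 CPM in the treated libraries. Tap1, whose start site faces that of Psmb9, stood at 20.2, 106, 45.1 and 13.6 CPM in the controls and at 9.4, 17.0, 14.1 and 12.8 CPM in the treated libraries, with the order of the upper 2 controls as in Psmb9.

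Markers of macrophages, T and NK cells and dendritic cells included genes that fell, where 3.75% of all genes tested were called lower. B cell and neutrophil markers had no call. The median log2 difference was -0.80, -1.46 and -1.19 for the first lists, 0.14 for B cell markers and 0.48 for neutrophil markers. Against those last medians, the B cell marker Ms4a1 (-1.20) and the neutrophil marker Csf3r (-0.99) were lower at an unadjusted p under 0.05. Of 11 macrophage markers Adgre1 fell from 44.5 ± 15.5 to 20.1 ± 6.53 CPM (log2 -1.14, SE 0.30, edgeR adjusted p = 0.0473) and Timd4 from 27.4 ± 15.1 to 9.78 ± 2.70 CPM (log2 -1.48, SE 0.38, edgeR adjusted p = 0.0439), and 10 of the 11 were highest in control 2. Their summed CPM was 601 to 1559 in controls and 417 to 827 in treated libraries. Of 10 T and NK cell markers 6 were tested, and Nkg7 and Cd3g fell, with summed CPM of 7.66 to 35.2 in the controls and 4.81 to 7.53 in the treated libraries. Itgax fell among 4 dendritic cell markers tested, with summed CPM of 3.83 to 8.02 in the controls and 1.91 to 3.22 in the treated libraries. The summed CPM of B cell markers was 8.11 to 11.5 in the controls and 8.50 to 11.6 in the treated libraries, and that of neutrophil markers 5.93 to 14.1 and 6.81 to 16. Pecam1 and Tek fell among 7 endothelial markers, whose summed CPM ran from 284 to 420 and from 207 to 302. The calls of Adgre1, Timd4, Cd3g, Itgax and Tek were lost with the length and GC correction (edgeR adjusted p = 0.0713, 0.0702, 0.0653, 0.0503 and 0.0975), and those of Nkg7 and Pecam1 were kept (0.0195 and 0.0392). Of the 8 fits that left out 1 library, 1 kept the call for Adgre1, Timd4 and Tek, 2 for Cd3g and Itgax, and 3 for Nkg7 and Pecam1. None of the markers was at 0 in every library. Of the 4 B cell, 3 neutrophil, 5 stellate, 2 cholangiocyte and 6 hepatocyte markers tested, edgeR called 0, and DESeq2 called 1 stellate marker lower. At an unadjusted p under 0.05, 1, 1, 2, 0 and 0 of them passed, all lower. The most abundant of each over all libraries were Ighm at 7.03 ± 0.712 CPM in the controls and 6.83 ± 1.23 in the treated libraries, S100a9 at 2.97 ± 2.18 and 4.44 ± 2.39, Dcn at 255 ± 25.0 and 193 ± 32.9, Sox9 at 4.01 ± 2.14 and 2.53 ± 0.442, and Alb as above. The part of these cell types in the values of the inducible subunits was not tested.

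The activators bind the ends of the core in place of the regulatory particle. Psme1 and Psme2, the alpha and beta chains of the interferon-inducible activator PA28, lie close together at chr14:55578123-55581529 and chr14:55587441-55591113. Psme1 stood at 51.0, 170, 54.3 and 61.4 CPM in the controls and at 70.4, 79.4, 79.0 and 64.3 CPM in the treated libraries. Psme2 stood at 39.8, 125, 51.0 and 62.5 CPM in the controls and at 54.6, 71.4, 70.8 and 61.5 CPM in the treated libraries. Both had the pattern of Psmb10, with control 2 highest, control 1 lowest and the treated libraries between. Neither passed the test, with log2 differences of -0.20 for Psme1 (SE 0.38, edgeR adjusted p = 0.765) and -0.11 for Psme2 (SE 0.32, edgeR adjusted p = 0.857), and without control 2 both turned, to 0.41 and 0.35. Psme3, the nuclear activator PA28 gamma, stood at 59.8 ± 5.20 CPM in the controls and 58.5 ± 4.88 CPM in the treated libraries, and its highest library was control 1. Psme2b, a close relative of Psme2, had under 2 CPM in every library and was not tested. An exon of Psme1 overlaps one of Emc9 on the opposite strand.

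Psme4, which encodes the activator PA200, fell in the treated libraries. It lies at chr11:30771726-30880361 and stood at 167, 156, 146 and 136 CPM in the controls and at 121, 110, 113 and 104 CPM in the treated libraries. Every treated library lay below every control, and control 2 was not the highest. The means were 151 ± 13.2 and 112 ± 7.18 CPM, a log2 difference of -0.43 (SE 0.11, edgeR adjusted p = 0.0429). With the length and GC correction the difference was -0.20 (edgeR adjusted p = 0.278), and of 8 fits that each left out 1 library, only that without control 4 kept the call, the others giving edgeR adjusted p-values of 0.0723 to 0.12.

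Psmd1, the large scaffold subunit of the regulatory particle base, fell as well. It lies at chr1:86064387-86139151 and stood at 131, 164, 127 and 114 CPM in the controls and at 81.1, 69.9, 86.2 and 97 CPM in the treated libraries. Every treated library lay below every control, and control 2 was the highest. The means were 134 ± 21.6 and 83.6 ± 11.3 CPM, a log2 difference of -0.68 (SE 0.15, edgeR adjusted p = 0.0246). With the length and GC correction it was -0.52 (edgeR adjusted p = 0.0697). Fits without control 1, control 4 or treated 4 kept the call, and those without control 2 or 3 or treated 1, 2 or 3 gave edgeR adjusted p-values of 0.0525 to 0.0799. Exons of Psmd1 overlap those of Htr2b on the opposite strand and of Gm21972 on the same strand.

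Psme4 and Psmd1 are the longest and the next longest of the members tested, at 8382 and 7265 bp in the deposited table, where the median member has 2800 bp. Psmd9 and Psmd5, nearly as long as Psmd1 at 7248 and 7230 bp, had log2 differences of 0.01 and -0.34 and were not called. Of the 10 members of at least 4000 bp, 8 had a log2 difference below 0, against 68.1% of all members tested. Over the 47 members the rank correlation of the log2 difference with length was -0.369, as a description across genes that share the same libraries.

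The regulatory particle genes lay mostly below 0, and edgeR called only Psmd1 among them. Of the 17 subunits tested, Psmd1 included, 15 had a log2 difference below 0, against 53.3% of all genes. The median was -0.23 (-0.13 without control 2). At an unadjusted p under 0.05, 5 of the 17 were lower, where 29.4% of all genes passed in either direction. Control 2 was the highest library in 16, against 19.3% of all genes. Among the lid subunits, Psmd11 at chr11:80428615-80473248 stood at 107, 129, 116 and 95.4 CPM in the controls and at 77.3, 73.4, 84.0 and 91.6 CPM in the treated libraries. Psmd14, the deubiquitinase of the lid at chr2:61711694-61800376, stood at 45.2, 70, 48.8 and 41.8 CPM in the controls and at 27.3, 30.4, 41.5 and 39.4 CPM in the treated libraries. In both the groups did not overlap, though the lowest control and the highest treated library were close. Their log2 differences were -0.45 (SE 0.13, edgeR adjusted p = 0.0537) and -0.57 (SE 0.19, edgeR adjusted p = 0.0902), and with the length and GC correction -0.15 (edgeR adjusted p = 0.508) and -0.43 (edgeR adjusted p = 0.193). Psmd12, a lid subunit at chr11:107479484-107504362, was at -0.41 (SE 0.14, edgeR adjusted p = 0.0977), or -0.38 with the correction (edgeR adjusted p = 0.127), with overlapping groups. DESeq2 called Psmd11 lower, and without control 4, where edgeR called 8.45% of all genes lower and 9.35% higher, it called Psmd11, Psmd12 and Psmd14 beside Psmd1 and Psme4. The lid subunit of highest mean FPKM over all libraries, Psmd7, stood at 35.3, 49.8, 37.5 and 31.9 FPKM in the controls and at 29.5, 31.0, 31.1 and 35 FPKM in the treated libraries, with overlapping groups.

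**Figure D5:**
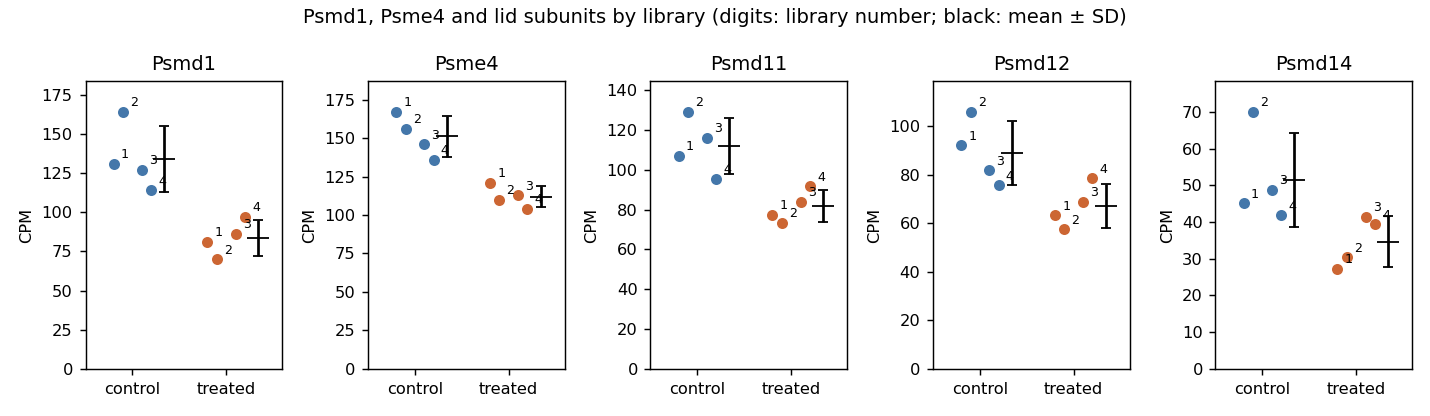
CPM of Psmd1, Psme4, Psmd11, Psmd12 and Psmd14 in each library, on linear axes from 0; points are libraries, and bars are the mean and SD of 4 libraries. The treated points lie below all control points except in Psmd12, and in Psmd1 they run from 69.9 to 97 against 114 to 164.

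The ATPases that form the ring of the base, Psmc1 to Psmc6, had log2 differences of -0.35 to 0.23 with a median of -0.19. Psmc2, at chr5:21785283-21803787, stood at 92.1, 110, 88.8 and 81.1 CPM in the controls and at 67.4, 63.9, 80.1 and 80.8 CPM in the treated libraries. Its groups did not overlap, by a gap of less than 1 CPM, and its log2 difference was -0.35 (SE 0.13, edgeR adjusted p = 0.12), or -0.09 with the length and GC correction (edgeR adjusted p = 0.718). Psmc1, the most abundant of the ring per length and its only gene above 0, stood at 46.4, 59.1, 42.8 and 43.2 FPKM in the controls and at 48.8, 45.5, 58.7 and 63.0 FPKM in the treated libraries. In FPKM treated 4 lay above the controls and treated 1, 2 and 3 within them. In CPM treated 3 (121) and treated 4 (125) lay above the controls (82.6 to 103). Of the 6 ATPases edgeR, DESeq2 and limma called 0, and 1 was lower at an unadjusted p under 0.05. Psmc3ip, which is no subunit, ran from 0.15 to 3.93 CPM and was not tested.

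The constitutive core showed no common direction. Of its 14 genes, leaving out Psma8, 7 had a log2 difference above 0 and 7 below, with a median of 0.03, and 8 were highest in control 2. In the alpha ring, which gates the entry of the core, the median was -0.06, edgeR, DESeq2 and limma called 0 of 8 genes, and 1 was lower at an unadjusted p under 0.05. That gene, Psma1 at chr7:114264606-114276118, stood at 80.2, 144, 91.5 and 82.1 CPM in the controls and at 75.8, 69.2, 70.3 and 76.9 CPM in the treated libraries, a log2 difference of -0.44 (SE 0.18, edgeR adjusted p = 0.143). Its groups did not overlap, and control 2 was far above the other controls; without it the log2 difference was -0.20 (edgeR adjusted p = 0.304). Psma6, at 86.8 FPKM over all libraries the highest member per length, stood at 80.1, 107, 75.7 and 71.8 FPKM in the controls and at 91.2, 78.0, 94.4 and 95.9 FPKM in the treated libraries, with overlapping groups. Psma8, the testis form of the Psma7 position, stood at no more than 3.96 CPM.

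The structural beta subunits, which have no active site, had log2 differences of -0.37 to 0.13 with a median of 0.01, and 0 of 4 were called by edgeR, DESeq2 or limma or had an unadjusted p under 0.05. Psmb4, the most abundant of them per length, stood at 56.6, 92.1, 55.9 and 55.5 FPKM in the controls and at 61.3, 58.1, 66.1 and 75.1 FPKM in the treated libraries. Control 2 was the highest library, and in FPKM the other controls lay below all treated libraries. In CPM they did not, with control 1 at 115 and treated 2 at 109.

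No assembly factor passed the test. The core chaperones Psmg1 to Psmg4, which guide the building of the alpha and beta rings, all had log2 differences above 0, from 0.06 to 0.32 with a median of 0.14, but with the length and GC correction Psmg4 turned from 0.06 to -0.55 (SE 0.20, edgeR adjusted p = 0.126) and Psmg2 from 0.10 to -0.03. The most abundant per length, Psmg4, stood at 13.1, 22.4, 14.2 and 13.6 FPKM in the controls and at 15.6, 15.8, 14.7 and 17.0 FPKM in the treated libraries, with control 2 highest. The base chaperones Psmd5, Psmd9 and Psmd10, which bind the ATPases before the ring closes, had a median of 0.01. Psmd10 was at 5.90 FPKM over all libraries against 5.85 for Psmd5, though below Psmd5 in the controls (5.97 against 6.64). It stood at 4.97, 7.05, 5.36 and 6.5 FPKM in the controls and at 5.81, 5.44, 6.34 and 5.73 FPKM in the treated libraries, all within the FPKM range of the controls. In CPM, treated 3 was the highest library at 9.96, against 7.63 to 9.61 in the controls. Psmf1, which encodes the proteasome regulator PI31, stood at 4.78, 6.19, 4.35 and 4.09 FPKM in the controls and at 3.69, 4.36, 4.71 and 4.64 FPKM in the treated libraries, again with overlapping groups. Of these 8 genes edgeR, DESeq2 and limma called 0, and 0 had an unadjusted p under 0.05.

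Proteasome partners outside the name rule held 1 gene that rose and 1 that fell among 16 tested, against 9.21% of all genes called. DESeq2 called 1 higher and 2 lower. Sem1, a small lid subunit, stood at 23.0, 23.8, 21.7 and 26.7 CPM in the controls and at 42.8, 38.6, 49.7 and 40.0 CPM in the treated libraries. Every treated library lay above every control, with a log2 difference of 0.85 (SE 0.12, edgeR adjusted p = 0.00667), which was 1.03 with the length and GC correction (edgeR adjusted p = 0.00741), and all 8 fits that left out 1 library called it. Usp14, a deubiquitinase that binds Psmd2 in the base, stood at 49.9, 56.2, 49.3 and 50.1 CPM in the controls and at 34.8, 32.2, 33.6 and 36.3 CPM in the treated libraries. Its groups did not overlap either, and its log2 difference was -0.59 (SE 0.10, edgeR adjusted p = 0.0109), or -0.26 with the correction (edgeR adjusted p = 0.166). Usp14 is 8345 bp long in the deposited table. The lid subunit Sem1 thus rose while 7 of the 8 lid members by name had a log2 difference below 0.

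Of 8 regulators of proteasome genes edgeR and limma called 0, and DESeq2 called 2 higher. At an unadjusted p under 0.05, 3 were higher, against 29.4% of all genes in either direction. Nfe2l1, the factor that drives constitutive subunit genes, stood at 118, 171, 176 and 123 CPM in the controls and at 182, 208, 200 and 232 CPM in the treated libraries. Its groups did not overlap, and its log2 difference of 0.48 (SE 0.17) did not pass the test (edgeR adjusted p = 0.0929). The most abundant regulator, Ddi2, the protease that activates the Nfe2l1 protein, stood at 273 ± 47.3 CPM in the controls and 258 ± 16.5 CPM in the treated libraries. Of 11 genes for ubiquitin, its activation and the segregase p97, edgeR called 1, against 9.21% of all genes. DESeq2 called 2 higher and 1 lower, limma called 2 higher, and 6 had an unadjusted p under 0.05, 2 of them lower. The gene called by edgeR, Rps27a, a ubiquitin and ribosomal protein fusion, rose from 188 ± 30.5 to 288 ± 37.9 CPM (log2 0.62, SE 0.16, edgeR adjusted p = 0.0396). With the length and GC correction Rps27a was at 0.69 (edgeR adjusted p = 0.0504), and 2 of the 8 fits that left out 1 library kept the call. Vcp, which encodes p97, stood at 260, 326, 245 and 265 CPM in the controls and at 183, 173, 188 and 227 CPM in the treated libraries, with no overlap and a log2 difference of -0.51 (SE 0.14, edgeR adjusted p = 0.0531). Nfe2l1 and Vcp were chosen after their values were seen.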

How the data were processed

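Liver RNA-seq libraries, 4 treated and 4 control, were grouped by the labels. The authors deposited 1 table of raw read counts per gene with FPKM. The submitters' processing notes name the build GRCm38 and the tools HTSeq 0.13.5, HISAT2 and DESeq2 1.32.0 without saying what each did. Annotation release and strand setting are not stated, and per the labels' protocols the kit was a standard poly-A kit, treated here as unstranded. The deposited FPKM equal counts scaled by gene length and summed library counts, which was checked. Of 24547 gene IDs, 24540 matched GENCODE M21 (GRCm38), the source of positions and GC content.

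Counts were tested in R 4.3.3 with edgeR 4.0.16 (filterByExpr with minimum count 10 and minimum total 15, TMM, robust quasi-likelihood F test, group as the only term) on 12861 genes, with Benjamini-Hochberg adjustment over all of them and calls at an adjusted p under 0.05. Standard errors derive from the F statistic. FPKM ratios were compared by exact permutation in Python 3.11.15. Alternatives were DESeq2 1.42.0 (size factors, Wald test), no filter, limma 3.58.1 on log2 FPKM (1 or 0.1 added, mean FPKM of 0.5 or more, or every gene), a per-library length and GC trend (mgcv 1.9.3), a replicate block and leaving out each library; leaving out controls 2 and 4 together was added after seeing the data. The edgeR step was tested on simulated data. No libraries were near-identical (smallest chi-square per degree of freedom 29.7).

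The members and gene lists were chosen with earlier results of these data known. Values in every library are given for the catalytic subunits, Psme1, Psme2 and called members (up to 4 per class), or the member of highest mean FPKM in a class with no call. Context lists give up to 3 called genes, or the most abundant. Other genes given with values (Psma1, Psmc2, Psmd11, Psmd12, Psmd14, Psme3, Ifng, Tap1) were chosen after their values were seen.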

Additional observations from a re-analysis of the deposited data

Results flagged for a closer look

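Of 94 combinations of a member and a group, 5 had 1 library whose gap to its nearest neighbour took up more of the group's range than the 95% critical value of Dixon's test allows. Chance flags about 1 in 20 groups, which is close to the number found, but in all 5 the library was control 2 and it was the highest of its group. Psma5, an alpha ring subunit, was at 97.6 CPM there, and the next control was at 56.2 CPM. Psmb2 was at 79.3 CPM against 53.6 CPM, and Psmb4 at 162 CPM against 115 CPM, both structural beta subunits. Psme1, the alpha chain of PA28, was at 170 CPM against 61.4 CPM. Psmg4, a core chaperone, was at 11.2 CPM against 7.86 CPM. The inducible catalytic subunits were not among them, since control 3 lay between control 2 and the rest in Psmb8 and Psmb9, and control 1 lay low in Psmb10. What sets control 2 apart was not tested.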

How the results depend on the processing

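With edgeR's main settings (9.21% of all genes called) and DESeq2 size factors (9.25%), 2 members were called, both lower. Limma with its filter called 2, both lower, at either pseudocount (7.49% and 7.74%). The number was 1, lower, without the low-count filter (4.66%) and 4 with DESeq2's Wald test (9.39% of the genes with any count), 1 higher and 3 lower. It was 0 with limma on every gene (2.09%) and 1, higher, with the length and GC correction (4.49%). Leaving out each library gave 0 to 5 members, all lower, with 1.4% to 17.8% of all genes called. The 5 came without control 4, where 17.8% of all genes were called. Leaving out controls 2 and 4 together, an alternative chosen after seeing the data, gave 1, Psmd1 (8.07%). No label says that library numbers pair the samples, and the weak correlations between libraries could not settle it. Same-numbered libraries deviated together with r from -0.0124 to 0.177, and differently numbered ones with r from -0.207 to 0.176. Control 2 correlated best with treated 1. A replicate block gave 0 members called, where 7.34% of all genes were called. Its edgeR adjusted p-values were 0.0575 for Psmd1 and 0.0614 for Psme4. With the block, Psmb10 turned to 0.03, Psme1 to 0.00 and Psme2 to 0.03, and the p of the ratios was 0.125 for Psmb9 to Psmb6, 0.625 for Psmb10 to Psmb7 and 0.25 for Psmb8 to Psmb5, where 0.125 is the smallest possible. Psmb5 turned to -0.00 with the length and GC correction. Over the fits that left out 1 library, the log2 ratio difference ran from -1.90 to -0.91 for Psmb9 to Psmb6 and from -0.69 to 0.06 for Psmb10 to Psmb7, and the log2 difference from -1.42 to 0.04 for Psmb8, -0.58 to 0.48 for Psmb10, -0.38 to 0.41 for Psme1 and -0.30 to 0.35 for Psme2, each above 0 only without control 2. Without controls 2 and 4 the log2 ratio difference of Psmb10 to Psmb7 was 0.25, and the log2 difference was 0.68 for Psmb10, 0.48 for Psme1 and 0.51 for Psme2. The 20 of 47 members that changed sign under an alternative were called in none of the fits compared. The causes were not tested, and the number of libraries, 4 a group, limits the precision.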
